A study of Arabidopsis thaliana with 18 samples.

Results

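The comparison set the 3 arrays numbered 13, 14 and 15 in their titles, from plants treated with salicylic acid (SA), against the 3 arrays numbered 4, 5 and 6, from plants treated with the surfactant silwet alone. These are 6 of the 18 arrays of the series, and each SA array was paired with the silwet array of the same replicate number (13 with 4, 14 with 5, 15 with 6). All plants were Arabidopsis thaliana of the reference accession Col-0. The control treatment was 0.02% silwet, which spreads a spray over a leaf, and the SA treatment was 0.30 mM SA in the same 0.02% silwet. The other 12 arrays carry the same treatments, as the first triplet (SA 10 to 12, silwet 1 to 3) and the third (SA 16 to 18, silwet 7 to 9). The labels give no tissue, plant age or time of harvest. The study is known to have sampled at several times after treatment, but the sources used here do not say which time belongs to which triplet. No label states that replicates were grown or treated separately, so a p-value here reflects the spread among these samples alone, and that spread may be technical.

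Salicylic acid is the hormone through which plants answer pathogens that feed on living cells. It is perceived through NPR1 and related proteins, which with TGA and WRKY transcription factors switch on defence genes, among them genes for receptor kinases, nucleotide-binding resistance proteins and secreted proteins. Plants also limit the signal by attaching sugars or methyl groups to SA, and strong defence activation is known to go with less growth and less remodelling of the cell wall.

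The median signal of the 6 arrays lay between 29.7 and 35.2, and every array had the same trimmed mean of 100. The log2 ratio of 3′ to 5′ actin probe sets, which rises as RNA is degraded, was 0.51, 1.43 and 0.69 on silwet arrays 4, 5 and 6 and 0.45, 0.62 and 0.79 on SA arrays 13, 14 and 15, highest on silwet array 5. SA array 10 of the first triplet stands apart at 6.85, and the shares of the lower calls compared with that triplet are also given without its pair. The mean log2 signal of the chloroplast-encoded genes was 8.61 to 8.94 with silwet and 8.64 to 9.03 with SA. RCA, which activates Rubisco in green tissue, had a signal of 2421, 2860 and 2541 with silwet and 2613, 2332 and 2721 with SA. PYK10, a beta-glucosidase of root and hypocotyl, had 79.2, 86.2 and 172 with silwet and 124, 163 and 149 with SA, and the groups overlapped. No flower or seed marker could be tested.

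In the second triplet, the named genes lower with SA included 15 protein kinase genes, 3 genes of TIR-domain resistance proteins and AT3G48080, a homologue of the defence regulator EDS1. The named genes higher with SA included 4 for enzymes of pectin or cellulose and 1 of a family that inhibits such an enzyme. These groups were formed from the called genes themselves, and the number of tested genes of each kind was not counted, so they describe the calls and not the families. The glucosyltransferase gene UGT76B1 had the largest rise among named genes. Of 13652 probe sets tested, 58 (0.425%) were higher and 166 (1.22%) lower with SA, by limma at a Benjamini-Hochberg adjusted p under 0.05. The estimate was the mean of the 3 paired differences of log2 signal, and the spread came from the pairs of all 18 arrays. All 224 had the same sign in 3 of 3 pairs, as 18.5% (higher) and 17.3% (lower) of all probe sets did. A call favours differences on which the pairs agree, so this follows largely from the call itself. The median difference was 0.86 log2 units among the higher probe sets and -0.82 among the lower ones, against 0.00 over all probe sets tested. A change of at least 2-fold was reached by 18 of the 58 and by 49 of the 166. Of these, 22 higher and 79 lower probe sets name 1 gene; the others are unnamed here or name several. In RNA from whole samples, fewer cells of a type and less RNA per cell cannot be told apart.

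The counts rest on all 3 pairs and on the pairing. Without replicate 1, 2 or 3 there were 26, 3 or 12 higher and 61, 48 or 50 lower probe sets. Without the pairing 0 were higher and 41 lower, with 782 at an unadjusted p under 0.05. With only the 6 arrays in a paired fit there were 147 and 195, and without the pair of SA array 10 and silwet array 1 there were 109 and 210.

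**Figure D1:**
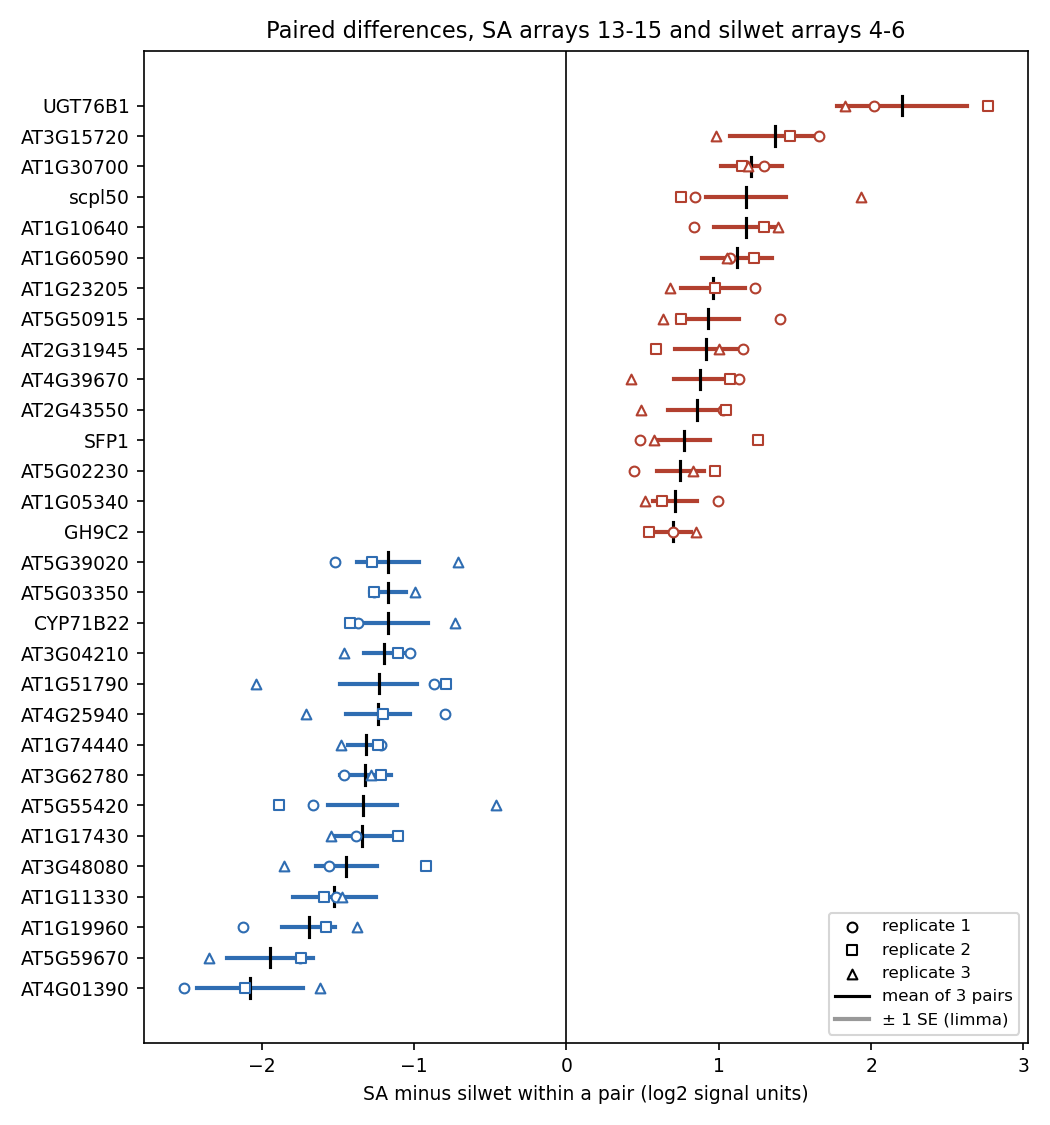
Paired differences of log2 signal (SA minus silwet, log2 units, horizontal axis) for the 15 named genes with the largest rise and the 15 with the largest fall, with 1 marker shape per replicate, the mean of 3 pairs as a black tick and ± 1 standard error from limma as a bar. All 3 markers of each gene lie on the same side of 0, and UGT76B1 at 2.20 and AT4G01390 at -2.08 have the largest means.

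Of the 79 named lower genes, 15 encode protein kinases, most of them receptor-like kinases that carry an extracellular sensing domain. Protein kinases are a very large gene family in plants, and this count cannot be read against the number tested. The kinase differences ran from -1.95 to -0.51 with a median of -0.90, and 1 kinase gene, AT4G32250, was higher (0.68). Values below are signals for replicates 1, 2 and 3 in that order.

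AT5G59670, a leucine-rich repeat receptor kinase, had 140.5, 90.1 and 115 with silwet and 41.8, 27.0 and 22.7 with SA. Each SA array read under each silwet array. The gene fell by 1.95 log2 units (standard error 0.28, 3.85-fold, adjusted p = 0.00657). AT1G11330, an S-locus lectin receptor kinase, had 175, 132 and 116 with silwet and 61.2, 43.9 and 41.7 with SA, again without overlap, and it fell by 1.53 (standard error 0.27, adjusted p = 0.019). AT1G51790, another leucine-rich repeat kinase, read 31.5, 37.2 and 37.0 with silwet and 17.2, 21.5 and 9.00 with SA. Its fall of 1.23 on average was uneven, with the pair of replicate 3 at -2.04 and the others at -0.87 and -0.79. AT5G39020, which carries a malectin-like domain, had 96.5, 91.8 and 58.7 with silwet and 33.7, 37.8 and 35.9 with SA and fell by 1.17 (adjusted p = 0.0116). Both of these were also separated, with each SA value under each silwet value.

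MIK2 (AT4G08850) is a receptor kinase that senses SCOOP peptides and cell wall damage, and AT1G35710 is its close relative. MIK2 had 178, 214 and 248 with silwet and 145, 118 and 85.0 with SA and fell by 0.90 (adjusted p = 0.0315), with pairs from -0.29 to -1.54. AT1G35710 had 316.7, 274 and 151 with silwet and 194, 169 and 67.4 with SA. Here the silwet and SA values overlapped while every pair fell, by 0.85 on average (adjusted p = 0.0206). The receptor-like kinase AT1G66880 had 154, 133 and 114 with silwet and 95.5, 98.1 and 70.8 with SA, a difference of -0.61 (adjusted p = 0.0224). MIK2 and AT1G66880 did not overlap between the groups. CRPK1 (AT1G16670), a kinase of the cold response, differed by -0.65 (adjusted p = 0.0238). These 4 kinase genes and AT4G32250, like any other gene named that is neither among the 15 largest per direction nor in a gene list nor among the widest gaps between triplets, were chosen after their values were seen.

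Of the named lower genes, 4 belong to the TIR-domain or EDS1 families, between -1.45 and -0.96. How many members of these families were tested was not counted. AT3G48080 encodes a homologue of EDS1, the lipase-like protein through which TIR receptors signal. It had 91.0, 52.8 and 73.7 with silwet and 30.9, 27.8 and 20.4 with SA, with no overlap, and fell by 1.45 (standard error 0.20, 2.73-fold, adjusted p = 0.00322). Its call held in 18 of 19 alternative analyses. AT3G04210, a TIR-NBS protein, had 540.3, 327 and 371 with silwet and 265, 152 and 135 with SA and fell by 1.2 (adjusted p = 0.000634), with silwet array 5 the lowest of its group and still above SA array 13. The TIR-NBS-LRR gene AT4G36150 had 43.4, 38.4 and 38.4 with silwet and 21.9, 22.5 and 11.7 with SA, a difference of -1.16. The TIR gene AT5G45000 had 33.5, 33.3 and 48.0 with silwet and 19.5, 19.5 and 19.1 with SA, where the 3 SA values lay close together under all silwet values, a difference of -0.96. SAG101, a relative of EDS1, did not pass (-0.64, adjusted p = 0.243).

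AT5G03350 encodes a legume lectin-like protein known to be induced by SA. It had 2007, 2434 and 2977 with silwet and 835, 1015 and 1493 with SA, without overlap, and fell by 1.17 (standard error 0.12, 2.26-fold, adjusted p = 0.000634), a call that held in 18 of 19 alternatives. AT5G55450, of the lipid-transfer protein family, had 908, 843 and 720.1 with silwet and 452, 394 and 371 with SA and fell by 1.02 (adjusted p = 0.0168). AT4G03450, an ankyrin-repeat protein, had 101, 124 and 114 with silwet and 67.1, 69.0 and 72.9 with SA, a difference of -0.70 (adjusted p = 0.023). Neither overlapped between the groups. ENGase85A, whose product releases N-glycans from proteins, did not either. It had 59.6, 76.5 and 50.4 with silwet and 31.0, 33.6 and 23.0 with SA and fell by 1.09 (adjusted p = 0.00232), also held in 18 of 19 alternatives.

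AT4G01390, which carries a TRAF-like (MATH) domain, had the largest fall among named genes, 40.6, 22.3 and 15.7 with silwet and 7.13, 1.96 and 3.75 with SA. The readings of 2 of its 3 SA arrays lie under the floor of 5.11 to 5.54 to which dim values were raised, so its 4.22-fold difference is a value on the floored scale. The C2-domain gene AT3G62780 had 84.2, 58.03 and 75 with silwet and 30.6, 24.9 and 30.8 with SA and fell by 1.32 (adjusted p = 0.00199). AT1G55450, a methyltransferase, had 594, 568 and 626 with silwet and 302, 300.4 and 269 with SA (differences of -0.98, -0.92 and -1.22). AT2G41090, a calmodulin-like protein, had 2528, 2675 and 2901 with silwet and 1637, 1331 and 1723 with SA and fell by 0.80 (adjusted p = 0.00429). None of these genes overlapped between the groups. AT1G19960 had 1319, 1094 and 1571 with silwet and 302, 367 and 606 with SA and fell by 1.69 (adjusted p = 0.000634), and AT1G74440 had 192, 198 and 261 with silwet and 82.7, 83.9 and 93.4 with SA and fell by 1.31 (adjusted p = 0.00031). Both calls held in 18 of 19 alternatives. The rest of the 15 largest falls were those of AT1G17430, an alpha/beta hydrolase (-1.34), AT4G25940, an ENTH-domain protein of vesicle budding (-1.24), and AT5G55420 (-1.34).

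Of the named calls, 8 lower genes and 1 higher gene encode cytochromes P450, glycosyltransferases, glutathione transferases or oxoglutarate-dependent oxygenases, enzymes that modify small molecules. This class too was formed from the calls, without a count of those tested. CYP71B22 had 64.3, 91.9 and 41.6 with silwet and 24.9, 34.2 and 25.1 with SA, a difference of -1.18 (adjusted p = 0.0452). CYP71B23, also a P450 gene, had 212, 166 and 197 with silwet and 116, 108 and 110.4 with SA, a difference of -0.78 (adjusted p = 0.0117). UGT72E1, which glucosylates lignin precursors, had 248, 276 and 193 with silwet and 121, 127 and 161 with SA, with differences of -1.03, -1.12 and -0.26 in the pairs. In all 3 genes the groups were separated, as in the next one. The glutathione transferase gene GSTU27 had 266, 219 and 192 with silwet and 164, 146 and 136 with SA and fell by 0.59 (adjusted p = 0.0314).

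The 1 higher gene of that class was UGT76B1, which glucosylates isoleucic acid and SA and so dampens the SA response. It had 12.6, 14.8 and 39.0 with silwet and 51.0, 101 and 138 with SA. The groups did not overlap, and silwet array 6 was the highest of its group and SA array 13 the lowest of its own. UGT76B1 rose by 2.20 log2 units (standard error 0.43, 4.61-fold, adjusted p = 0.043). The call is close to the threshold and held in 12 of 19 alternatives.

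Among the 22 named higher genes, 5 encode enzymes of pectin or cellulose, or an inhibitor of one, with differences from 0.70 to 1.37. The number of such genes tested was not counted, so the 5 describe the calls alone. AT1G10640, a polygalacturonase, which cuts pectin chains, had 65.4, 45.2 and 31.2 with silwet and 117, 111 and 81.8 with SA and rose by 1.18 (standard error 0.20, 2.26-fold, adjusted p = 0.0116). AT3G15720, a polygalacturonase as well, had 11.8, 9.95 and 18.7 with silwet and 37.2, 27.5 and 37.0 with SA and rose by 1.37 (adjusted p = 0.0344). Both genes were higher on every SA array than on any silwet array. AT1G60590, of the pectin lyase-like family, had 38.9, 50.4 and 36.4 with silwet and 81.9, 118 and 75.6 with SA, a rise of 1.12 (adjusted p = 0.0279). AT1G23205, of the family that inhibits pectin methylesterases, had 26.7, 45.8 and 41.3 with silwet and 62.9, 90.0 and 66.2 with SA, a rise of 0.96 (adjusted p = 0.0344). GH9C2, an endoglucanase that acts on cellulose, had 352.7, 453 and 356.6 with silwet and 572, 660.0 and 642 with SA and rose by 0.70 (standard error 0.12, adjusted p = 0.0116). Its pairs lay close together, from 0.54 to 0.85, and in all 5 genes the SA and silwet values did not overlap. AT1G67750, a pectate lyase, had 132, 135 and 83.7 with silwet and 168, 223 and 174 with SA, a difference of 0.71 that did not pass (adjusted p = 0.097).

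Other rises were spread over many functions. AT1G30700, a berberine bridge enzyme-like oxidase, had 64.0, 20.2 and 44.8 with silwet and 157, 44.9 and 102 with SA. The groups overlapped, since silwet array 4 read above SA array 14, yet the 3 pairs agreed closely at 1.29, 1.15 and 1.19 (mean 1.21, adjusted p = 0.00929). scpl50, a serine carboxypeptidase-like protein, had 48.3, 48.2 and 19.2 with silwet and 86.8, 81.4 and 73.2 with SA, a rise of 1.18 to which replicate 3 gave the most (1.93). The bHLH transcription factor gene AT5G50915 rose by 0.93, the glycolipid-transfer protein gene AT4G39670 by 0.87, the defensin-like gene AT2G43550 by 0.86, the sugar transporter gene SFP1 by 0.77, the HAD-family hydrolase gene AT5G02230 by 0.75, AT2G31945 by 0.92 and the cysteine-rich transmembrane gene AT1G05340 by 0.71. The 2 named chitinase genes went opposite ways. AT3G47540 had 103, 81.0 and 104 with silwet and 144, 135 and 159 with SA, a rise of 0.61 (adjusted p = 0.0314), and AT4G01700 had 120.2, 83.2 and 95.8 with silwet and 56.3, 50.9 and 60.4 with SA, a fall of 0.82 (adjusted p = 0.012).

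Over all probe sets tested, 5.06% were higher and 6.89% lower on every SA array than on every silwet array. Among the named calls, 17 of the 22 higher and 72 of the 79 lower genes were so separated. The rest overlapped. The calls were made on these same arrays, so shares above those of all probe sets follow largely from the choice. The separated genes depended on the pairing too, since without it 0 probe sets were called higher and 41 lower.

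Few of the classical SA markers could be tested. Of 35 SA-inducible defence genes listed, 6 could be named and 5 tested, and UGT76B1 was the 1 that passed. SARD4, an enzyme that makes pipecolic acid, a defence signal, had 205, 186 and 216 with silwet and 146, 122 and 142 with SA, without overlap, a difference of -0.57 that did not pass (adjusted p = 0.0627). WRKY53, a transcription factor of defence and senescence, had 104, 94.3 and 66.1 with silwet and 70.7, 66.3 and 61.2 with SA (-0.39, adjusted p = 0.278), with overlap. GRX480, a glutaredoxin that binds TGA factors, had 51.1, 36.4 and 91.8 with silwet and 60.6, 62.6 and 106 with SA (0.41, adjusted p = 0.44), higher with SA in 3 of 3 pairs. WRKY6 differed by -0.04. The median of the 5 was -0.04.

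Genes of SA synthesis, perception and signalling gave 3 tested members of 25 and no call. BSMT1, which makes the volatile methyl ester of SA, had 23.3, 17.9 and 19.7 with silwet and 40.1, 27.4 and 43.3 with SA, with every SA array above every silwet array (0.84, adjusted p = 0.275). SAG101, the partner of EDS1, had 40.3, 69.9 and 47.1 with silwet and 34.5, 33.9 and 29.8 with SA, with every SA array below every silwet array (-0.64, adjusted p = 0.243). AT3G47480, listed as DTH9, a symbol that the gene table does not give for it, differed by 0.10. The list median was 0.10.

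Jasmonate and ethylene response genes gave no call, with 3 of 26 tested and a median of -0.55. The defensin gene PDF1.2 had 1889, 2622 and 239 with silwet and 318, 206 and 562 with SA, so that replicates 1 and 2 differed by -2.57 and -3.67 and replicate 3 by 1.24 (adjusted p = 0.588). Silwet array 6 read far below silwet arrays 4 and 5. Its near-identical copy PDF1.2b, which may share signal with it, gave -1.14, -2.14 and 1.64. THI2.1, a thionin, differed by 0.18.

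The lists of endoplasmic reticulum and detoxification genes had medians below 0. Chaperones and translocon proteins of the endoplasmic reticulum, which fold and export secreted proteins, had 5 of 22 members tested, none called, all below 0 and a median of -0.29. ATERDJ3B, a co-chaperone, came nearest to the threshold with 539.8, 743 and 630.1 with silwet and 449, 461 and 433 with SA (-0.50, adjusted p = 0.0546). CRT1b, SEC61A and the stress transcription factor BZIP60 differed by -0.25, -0.17 and -0.39. Detoxification genes had 5 of 30 tested and a median of -0.59, and GSTU27 was the 1 called. GSTU16, GSTU25 and GSTU20 differed by -0.32, -0.61 and 0.09.

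Cell wall and growth genes had 4 of 21 tested, GH9C2 called higher and a median of 0.31. The expansin genes EXPA8 and EXPA4, whose products loosen walls, differed by 0.45 and 0.17 and XTH16 by -0.10, with none passing. The glucosinolate, tryptophan and camalexin list had 4 of 28 tested, no call and a median of 0.12. UGT74C1, of glucosinolate synthesis, had 132, 142 and 211 with silwet and 246, 238 and 256 with SA, without overlap (0.64, adjusted p = 0.216), and BCAT4, UGT74B1 and IGPS differed by 0.25, -0.01 and -0.25.

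No member was called in the remaining lists. Nuclear photosynthesis genes (6 tested, median -0.11) and chloroplast-encoded genes (66 tested, median -0.07, from -0.41 to 1.40) lay near the median of all probe sets. Auxin response genes had 3 tested and a median of 0.04, with GH3.3, which conjugates auxin, at 0.43, WES1 at 0.04 and IAA29 at -0.38. Clock genes had 3 tested and a median of 0.10, with GI at 0.10. Cold, drought, touch and heat genes had 5 tested, between 0.01 and 0.17. Senescence and autophagy genes had 12 tested and a median of -0.03, with APG8A at 0.10 and ATG8F at 0.09. Reference genes had 3 tested, with TUB6 at 0.04, SAND at 0.17 and TIP41 at -0.20. The 1 root marker tested, PYK10, differed by 0.45 and the 1 leaf marker, the guard cell regulator FMA, by -0.22.

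**Figure D2:**
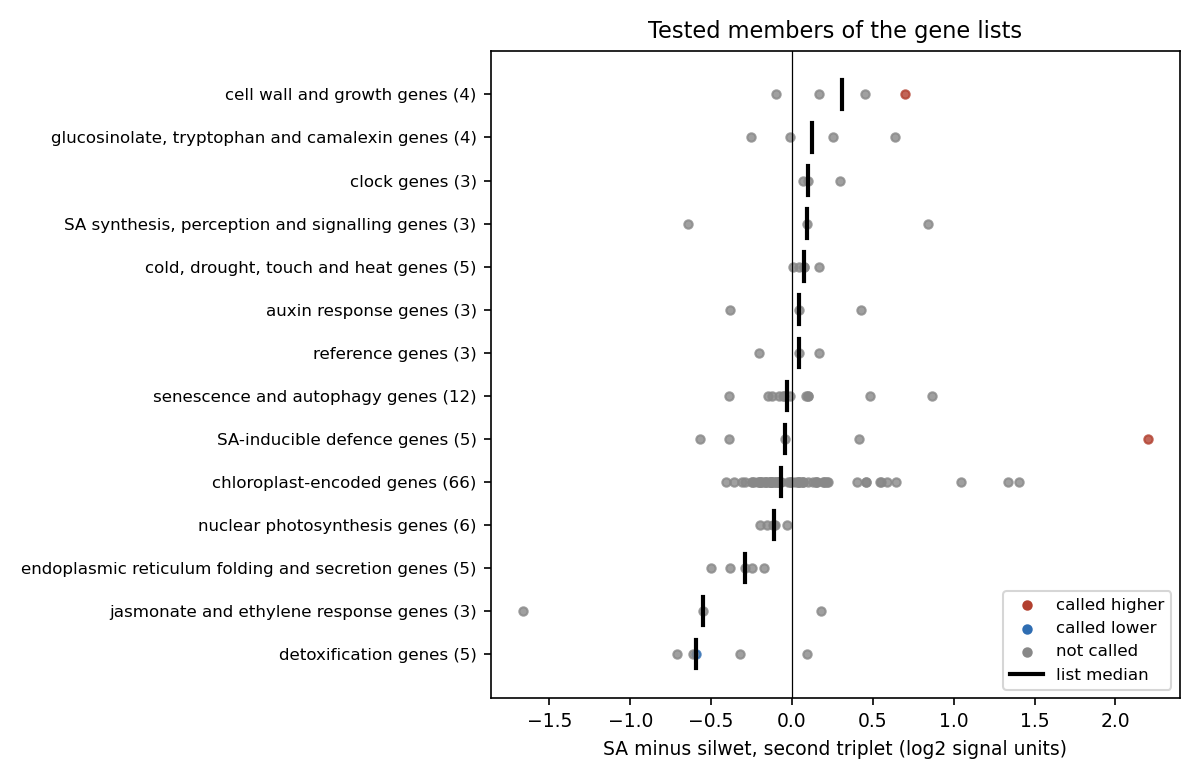
Difference of log2 signal (SA minus silwet, log2 units, horizontal axis) for each tested member of the lists with at least 3 tested members (number in brackets), with the list median as a black tick. UGT76B1 at 2.20 and GH9C2 at 0.70 are the members called higher and GSTU27 at -0.59 the 1 called lower.

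The genes lower with SA in the second triplet were mostly higher with SA in the first, where the same 2 treatments were compared on other arrays. The numbering of the triplets is that of the arrays, and their order in time is not known here. Of the 166 lower probe sets, 135 (81.3%) were called higher with SA in the first triplet, against 11.8% of all probe sets, and 1 was called lower. These 135 are 8.40% of the 1608 probe sets higher there. The 166 had a median difference in the first triplet of 0.76 log2 units, against -0.05 over all probe sets, and 154 of the 166 lay above 0, against 44.4%. The test of the difference between the triplets was passed by 158 of the 166 (95.2%), against 22.3% of all probe sets. Without the pair that holds SA array 10, the lower calls of that fit were called higher in the first triplet in 73.3% and differed between triplets in 92.9%. Both differences use the second triplet's arrays, so the test of the difference is not independent of the rule that chose the 166. The calls of the triplets are not independent either, since the fit gives a probe set the same standard error in each triplet. Probe sets with little spread are more readily called in every triplet, which can raise the shares called above those of all probe sets. The sign of a difference does not depend on that standard error.

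Averaged over the 166 probe sets, silwet arrays had a log2 signal of 7.82 ± 0.12 in the first triplet, 7.71 ± 0.04 in the second and 7.48 ± 0.14 in the third (SD, n = 3 each). The SA arrays had 8.55 ± 0.05, 6.83 ± 0.09 and 7.02 ± 0.14. The level with SA was thus above silwet in the first triplet and under it in the others, while the silwet levels lay closer together. Averaged over the 58 higher probe sets, the silwet arrays had 6.59 ± 0.25, 6.46 ± 0.30 and 6.74 ± 0.20 and the SA arrays 6.20 ± 0.26, 7.44 ± 0.14 and 7.19 ± 0.21.

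**Figure D3:**
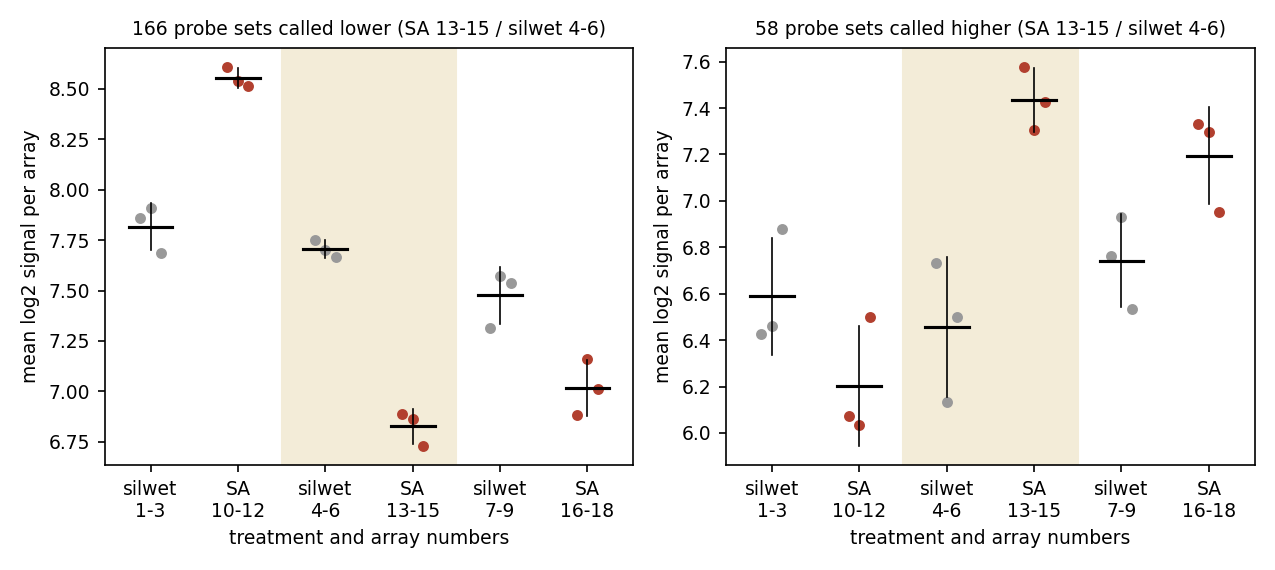
Mean log2 signal per array (vertical axis) over the 166 probe sets called lower and the 58 called higher in the second triplet, for the 6 groups of 3 arrays, with points for arrays, a tick for the mean and a line for ± 1 SD; the second triplet, which chose the probe sets, is shaded. The 166 average 8.55 on SA arrays 10 to 12, 6.83 on SA arrays 13 to 15 and 7.02 on SA arrays 16 to 18.

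Of the 15 lower kinase genes, 13 were called higher in the first triplet and all 15 differed between the triplets, beside 81.3% and 95.2% of all 166 lower probe sets. AT5G59670 differed by 1.05 in the first triplet (adjusted p = 0.0188) and AT1G51790 by 1.66 (adjusted p = 0.000634). The 4 TIR or EDS1-family genes were all called higher there, AT3G48080 by 1.25 and AT5G45000 by 1.97. AT5G03350 rose by 0.45 in the first triplet (adjusted p = 0.0129) and fell by 1.17 in the second, and ENGase85A rose by 1.47. The falls of AT2G41090 and CYP71B22 in the second triplet had no rise beside them, with -0.17 and -0.51 in the first, neither of which passed.

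The higher genes divided in the first triplet. Of the 58 probe sets, 30 (51.7%) were called lower there, against 14.3% of all probe sets, and 7 higher, and the median was -0.55. The share was 34.6% of 26, 33.3% of 3 and 25% of 12 higher calls without replicate 1, 2 or 3. These 30 are 1.53% of the 1957 lower there. The shared standard error bears on the contrast of 51.7% with 14.3% as well. All 5 pectin and cellulose genes differed between the triplets, and 4 of them were called lower in the first. GH9C2 fell by 2.42 there (adjusted p = 4.03e-07), AT1G10640 by 1.68 and AT1G60590 by 1.62. UGT76B1, in contrast, was higher in both, by 3.55 in the first triplet and 2.20 in the second, a difference between triplets of -1.34 (standard error 0.61, adjusted p = 0.149). AT4G39670 (1.16), AT1G05340 (0.68) and the chitinase gene AT3G47540 (0.87) were also called higher in the first triplet.

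**Figure D4:**
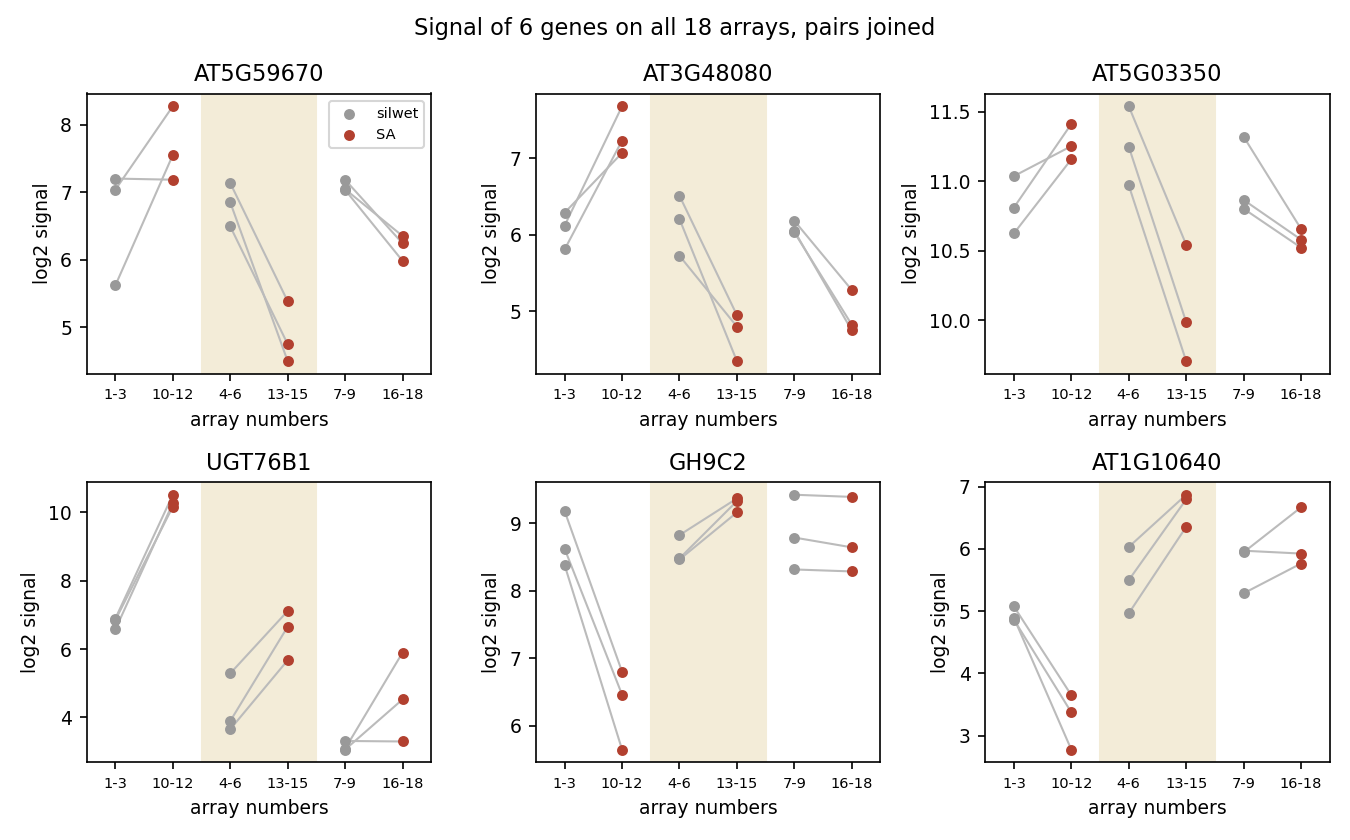
log2 signal (vertical axis) of 6 genes on all 18 arrays by group of array numbers, silwet in grey and SA in red, with lines joining the arrays of a pair and the second triplet shaded. The receptor kinase gene AT5G59670, the EDS1 homologue AT3G48080 and AT5G03350 go down from silwet to SA in the second triplet, and UGT76B1, GH9C2 and AT1G10640 go up.

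Of the 5 SA-inducible genes tested, 3 differed between the second and first triplets, against 22.3% of all probe sets. SARD4, WRKY53 and GRX480 rose by 1.55, 1.57 and 2.06 in the first triplet, and their SA effects in the second differed from these by -2.12, -1.96 and -1.64 (adjusted p = 3.91e-05, 9.22e-05 and 0.00197). None of the 3 passed in the second triplet itself, where GRX480 lay above 0. UGT76B1 and WRKY6 did not pass this test (adjusted p = 0.149 and 0.111). The list median was 1.57 in the first triplet and 0.20 in the third. Of the endoplasmic reticulum genes, all 5 tested differed between the second and first triplets, with list medians of -0.29 and 0.49. The cell wall and growth list had medians of 0.31 and -1.12, with 3 of 4 differing.

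The widest gaps between the second and first triplets among named genes past the test include the following. AT3G17640, a leucine-rich repeat protein, differed by 1.21 in the second triplet and -2.47 in the first. AT1G67750 differed by 0.71 and -2.21, and AT1G78450 by 0.13 and -2.69. On the other side were AT3G48650 (-0.47 and 2.76) and the AAA-ATPase gene AT3G28540 (-0.92 and 2.21). None of these 5 passed in the second triplet on its own.

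In the third triplet the same probe sets mostly had the sign of the second, with smaller median differences. They were chosen for their differences in the second triplet, so smaller ones on other arrays follow in part from the choice. Over all probe sets tested, the median absolute difference was 0.15 in the second triplet and 0.16 in the third. Of the 166 lower probe sets, 161 (97.0%) lay below 0 there, against 53.2% of all probe sets, with a median of -0.43, and 17 were called lower (10.2%). These 17 are 51.5% of the 33 probe sets lower in the third triplet, where 0.242% of all probe sets were called lower. Of the 58 higher ones, 51 (87.9%) lay above 0, against 46.8%, with a median of 0.40, and 2 of the 6 probe sets higher in the third triplet (0.0439% of all) were among them. AT3G48080 (-1.14, adjusted p = 0.0329), AT1G35710 (-1.2, adjusted p = 0.00933), AT1G66880 (-0.96, adjusted p = 0.005) and ENGase85A (-0.80, adjusted p = 0.0329) are the named genes called lower in both. AT1G05340 was called higher in both, by 0.97 in the third (adjusted p = 0.0166). All 15 lower kinase genes lay below 0 there. The shared standard error can also raise the number of probe sets called in both triplets, but not the number with the same sign. The SA effects of the second triplet and the third differed for no probe set by limma, with 1006 at an unadjusted p under 0.05, which does not show that they were alike.

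**Figure D5:**
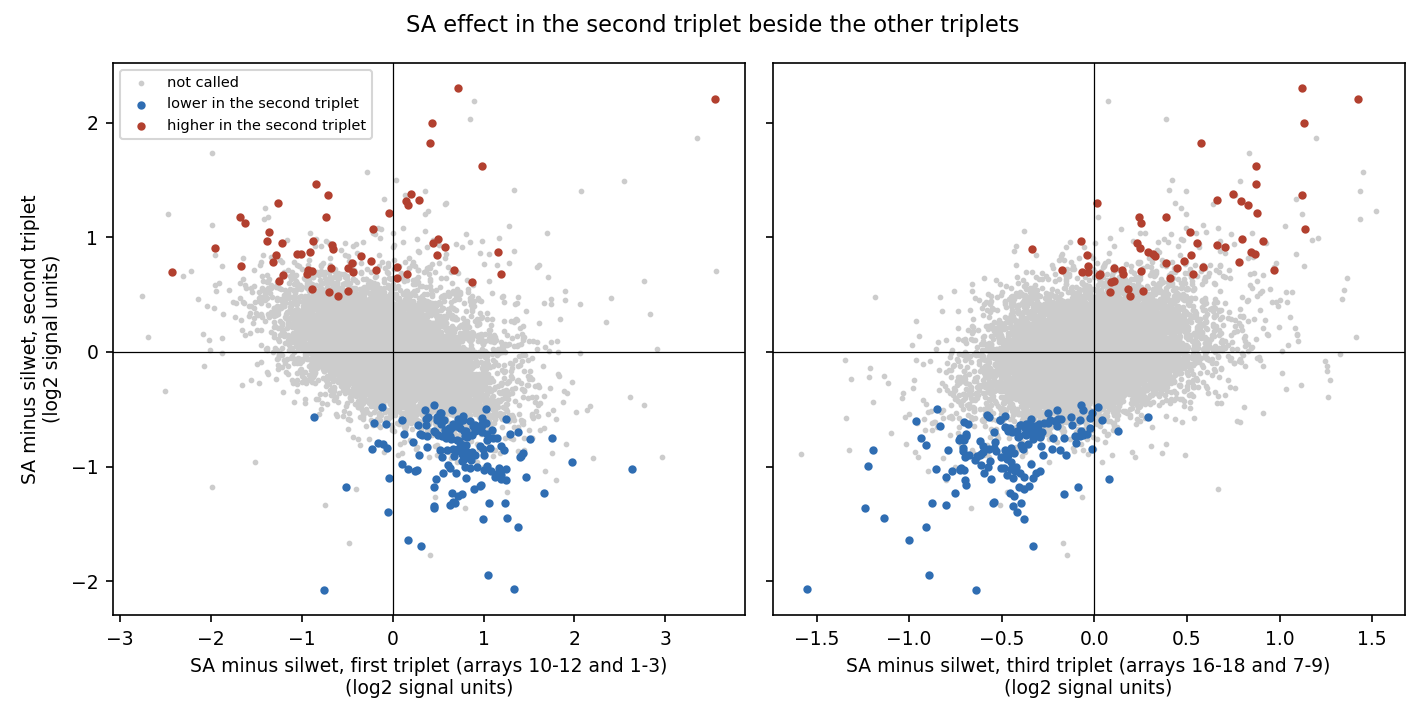
SA minus silwet in the second triplet (log2 units, vertical axis) against the first triplet (left) and the third (right) for 13652 probe sets, with the 166 called lower in the second triplet in blue and the 58 called higher in red. Most blue points lie right of 0 on the left (154 of 166) and left of 0 on the right (161 of 166).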

How the data were processed

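The deposited values were intensities, 1 MAS5 signal per probe set of the Affymetrix ATH1 array on a linear scale (MAS5 per the submitters' processing notes, which give no version). The labels name total RNA and a biotin label. Each array's intensities as deposited have a mean of 100 without the highest and lowest 2%, which shows scaling to a common mean before deposit.

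Groups, pairs and triplets were taken from the treatment, array number and replicate number in the titles. Signals under an array's 20th percentile were raised to it, and values were then put on the log2 scale. Control probe sets and those with a mean under the 40th percentile were dropped, and 13652 remained. The fit was run with limma 3.58.1 under R 4.3.3 on all 18 arrays (functions lmFit and eBayes, trend and robust on), with 9 pair blocks and an SA effect per triplet. The effect in the second triplet is the mean of its 3 paired differences, and the other 12 arrays enter only the spread. P-values were adjusted by Benjamini-Hochberg over all probe sets, with a threshold of 0.05. Counts were made in Python 3.11.15. Fold changes are on the floored scale, which understates changes of dim transcripts. The number of arrays limits the precision; sign changes of 3 pairs allow no exact two-sided permutation p under 0.25.

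The pairing was checked on the arrays' deviations from their group means. Same-numbered SA and silwet arrays correlated at 0.54, 0.40 and 0.55 and differently numbered ones between -0.45 and -0.08. Deviations from a group mean cancel within the group, so positive same-numbered values push the others down by arithmetic. Replicate numbers were used as pairs on the basis of the same-numbered values, since no label states it. The profiles of the 6 arrays correlated between 0.942 and 0.976, so none was counted as a copy.

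Names came from the platform annotation, with symbols updated through a TAIR10.1 gene table, used for names alone. A locus without a symbol there took the symbol of the hand-written lists. Among the genes named here these are SARD4, DTH9, SEC61A, UGT74C1, IGPS, SAND and TIP41. Of 22810 probe sets, 13513 name 1 gene, 503 several and 8794 are unnamed here. Genes were named by rule: up to 15 per direction with the largest called differences and the same sign in 3 of 3 pairs, all tested SA-inducible genes, the called and the 4 brightest tested members of other lists, and up to 5 per direction for differences between triplets. The members, the lists and this rule were chosen with earlier results of these data known, and no list was tested as a set. The 16 hand-written lists and the chloroplast-encoded genes (taken by chromosome in the gene table) are given in the report. Role classes and 15 further genes were picked once values were known. The alternatives changed the pairing, the arrays in the fit, the floor, the filter, the scaling, the variance model, the probe sets per gene and each replicate. Promoter motifs were not analysed here.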

Additional observations from a re-analysis of the deposited data

Results flagged for a closer look

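The SA effect of the second triplet differed from that of the first for 3045 of 13652 probe sets by the test of the difference itself (limma, adjusted p under 0.05), and 63 of the 103 genes named by the rule or added after their values were seen were among them. Each value here is the log2 SA effect of the second triplet minus that of the first, with 3 pairs in each triplet. A positive value means a higher SA effect in the second triplet. Some of these genes were named because they passed this test, and others for a large difference in the second triplet, which enters it. The 63 and the counts below thus follow in part from how the genes were chosen. Of all probe sets tested, 22.3% passed. 

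Among the genes with the largest rises in the second triplet, 11 differed. The values were AT3G15720 2.09, AT1G30700 1.25, scpl50 1.91, AT1G10640 2.85, AT1G60590 2.74 and AT1G23205 1.84. They were AT5G50915 1.59, AT2G43550 1.87, SFP1 1.22, AT5G02230 2.41 and GH9C2 3.12 for the others.

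Of those with the largest falls, 13 differed. The differences between triplets were AT5G59670 -2.99, AT1G19960 -2.0, AT1G11330 -2.91, AT3G48080 -2.70, AT1G17430 -1.80 and AT5G55420 -1.97. For the next ones they were AT3G62780 -2.56, AT1G74440 -1.98, AT4G25940 -2.0, AT1G51790 -2.90, AT3G04210 -2.10 and AT5G03350 -1.62. The last was AT5G39020 -2.13.

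The rest of the differing genes came from the gene lists, from the largest differences between triplets, or were added after their values were seen. The positive values were BSMT1 1.37, BCAT4 1.08, UGT74C1 1.99, COR15B 0.98, COR47 0.70 and EXPA8 1.85. The value of BSMT1 is limited by the floor. Its signals on silwet array 1 and SA arrays 10 and 11 (1.84, 0.58 and 1.60) lay under the floors of 5.53, 4.36 and 5.24. Further positive values were EXPA4 1.01, TUB6 0.54, AT3G17640 3.67, AT1G67750 2.92 and AT1G78450 2.81. Negative values were SARD4 -2.12, WRKY53 -1.96, GRX480 -1.64, AT3G47480 (listed as DTH9) -1.45, SAG101 -1.43 and SEC61A -0.52. Also negative were CRT1b -0.73, ATERDJ3B -1.33, BZIP60 -0.87, GSTU27 -1.09, GH3.3 -1.24 and IGPS -0.76. Below 0 too were APG8A -0.74, AT3G48650 -3.23, AT3G28540 -3.13, AT5G45000 -2.93, AT2G41090 -0.63 and AT5G55450 -1.19. Lower in the second triplet as well were AT1G55450 -1.28, AT1G35710 -2.07, AT4G08850 -1.73, CYP71B23 -1.51, AT1G66880 -1.46 and AT4G01700 -2.01. The remaining ones were AT1G16670 -1.62, AT4G03450 -1.68, ENGase85A -2.56 and AT4G36150 -2.13.

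For the second triplet against the third, no probe set passed the same test (limma), with 1006 at an unadjusted p under 0.05.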

How the results depend on the processing

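Alternatives are given as higher and lower counts of the second triplet (58 and 166 as reported). Without a replicate block they were 0 and 41, with 1379 probe sets differing between the second and first triplets (3045 as reported), and of the lower ones 73.2% were called higher in the first triplet and 100% differed from it. With a replicate block of 3 numbers shared by all triplets they were 2 and 58; 100% of the higher ones were called lower in the first triplet and lay above 0 in the third, and 100% of the lower ones differed from the first. With the 6 arrays alone they were 147 and 195 with the replicate block and 0 and 1 without it. Without the first triplet they were 128 and 214, without the pair of SA array 10 and silwet array 1 they were 109 and 210 (73.3% of the lower ones called higher in the first triplet), and without the third triplet, chosen after seeing the data, 28 and 97. No filter gave 25 and 98, eBayes without trend and robust 28 and 93, array weights 98 and 228, and 1 probe set per named gene 24 and 84, with 1613 differing from the first triplet. The lower probe sets that differed from the first triplet made up 98.0%, 98.9% and 99.0% with no filter, without trend and without the third triplet. No floor, log2 of the signal plus 16, the filter at the 60th percentile, quantile normalization and median centring left both counts within 1.5 times. Leaving out a replicate gave 3 to 26 higher and 48 to 61 lower probe sets (26 and 61 without replicate 1, 3 and 48 without replicate 2, 12 and 50 without replicate 3); 74% to 81.3% of the lower ones were called higher in the first triplet, 98% to 100% differed from it and 92% to 100% lay below 0 in the third, and 25% to 34.6% of the higher ones were called lower in the first and 92.3% to 100% lay above 0 in the third. Every reported call that was tested kept its sign under every alternative. Most of this was fixed beforehand. Each call had the same sign in all 3 pairs, so leaving out a replicate could not change it. Array weights give a weighted mean of the 3 pairs, so they could not change the sign either. Changing the block, the filter, the eBayes settings or the other arrays leaves the estimate itself as it was. Of the 101 named calls, each was kept in 6 to 18 alternatives, with a median of 12. Some of these genes were tested in 18 of the 19 alternatives and the others in all 19. Settings with fewer arrays have fewer residual degrees of freedom, and some of them gave more calls and some fewer. Why the counts moved was not tested for any setting. Dim genes are limited by the floor.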
